A study of Mus musculus with 6 samples.

Results

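Replication-dependent histone genes supply most of the histone protein that a cell needs when it copies its DNA. They were taken as every protein-coding gene whose GENCODE M21 symbol starts with Hist1h, Hist2h, Hist3h or Hist4h. The annotation holds 67 such genes, and 56 of them had counts among the 23508 genes of the deposited table. The other 11 (Hist1h1t, Hist1h2aa, Hist1h2ao, Hist1h2ap, Hist1h2ba, Hist1h2bm, Hist1h2bq, Hist1h2br, Hist1h4m, Hist2h2aa1 and Hist2h3c1) were not analysed here. The 56 genes were compared between 3 mouse tumors sampled before the first peak of neural activity in the tumor (before peak) and 3 sampled with that peak (with peak), to ask whether their messages differed between these stages. All 6 tumors were grown from 4T1, a mouse mammary carcinoma line that serves to model triple-negative disease. The labels name no host strain, tumor age, treatment or engineered allele for either group. Nor do they tell separate animals from repeated pieces, and the spread behind each p-value may therefore be technical in part.

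The main kinds of histone protein are all made from these genes. H2A, H2B, H3 and H4 form the core around which DNA is wrapped, and the linker histone H1 binds the DNA between cores. The genes lie in clusters, mostly have no introns and are transcribed mainly while DNA is being replicated. Their messages normally end in a conserved stem-loop instead of a poly(A) tail. The stem-loop binding protein SLBP holds this hairpin, and the U7 small nuclear RNA directs the cut just after it. Some of these genes are also known to give polyadenylated messages from a signal farther downstream. Libraries made by oligo(dT) selection, as these were, capture RNA through runs of A, so that messages ending at the stem-loop are largely lost before sequencing.

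The 3′ ends of the genes are shown first because they bear on which messages such libraries can hold. The 16-base pattern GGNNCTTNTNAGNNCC, where N is any base, was searched on the sense strand of the GENCODE M21 transcripts of GRCm38. It was present in 45 of the 67 genes (67.2%) and in 36 of 21799 other protein-coding genes (0.165%). The stem-loops of 7 genes, with the matched 16 bases in capitals, show some of the forms across the histone kinds.
Hist1h1c: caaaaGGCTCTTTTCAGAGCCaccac
Hist1h2ae: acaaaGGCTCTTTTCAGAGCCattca
Hist1h2be: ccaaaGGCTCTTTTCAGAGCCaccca
Hist1h3g: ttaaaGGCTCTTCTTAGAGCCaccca
Hist1h4b: caaaaGGTCCTTTTCAGGACCactca
Hist1h4h: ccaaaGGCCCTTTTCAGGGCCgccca
Hist1h4i: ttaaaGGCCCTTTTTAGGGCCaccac
The form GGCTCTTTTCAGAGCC was in 25 genes of the H1, H2A, H2B and H3 kinds. The form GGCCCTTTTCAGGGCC was in 7 genes, all of them H4. Of the 13 H4 genes, 12 held a match. On GRCm38 the printed windows are at chr13:23739507-23739532 on the plus strand for Hist1h1c, chr13:23531453-23531478 on the plus strand for Hist1h4h and chr13:22040961-22040986 on the minus strand for Hist1h4i. Each lies in the 3′ untranslated region of a single coding exon. A transcript without a match lacks only these letters in its annotated sequence. That of Hist1h1a, for example, ends within 50 bases of the stop codon.

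The hexamers AATAAA and ATTAAA, the usual poly(A) signals, were searched in the last 50 bases of the annotated transcripts. One or the other was there in 17 of the 67 histone genes (25.4%) and in 72.3% of other protein-coding genes. The ends of 4 of the more abundant genes are printed with the hexamer in capitals.
Hist1h1c: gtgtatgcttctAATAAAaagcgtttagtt
Hist1h4i: ggttctgtttacATTAAAagtattctatgc
Hist2h2be: gttattattattAATAAAgttaccgattag
Hist3h2a: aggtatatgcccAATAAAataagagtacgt
These windows are at chr13:23740330-23740359 (plus strand), chr13:22040639-22040668 (minus strand), chr3:96223705-96223734 (plus strand) and chr11:58956785-58956814 (plus strand). In Hist1h1c the annotated transcript ran 840 bases past the stem-loop, and in Hist1h4i it ran 330 bases past it. The annotated transcript of Hist2h2be has 2192 bases after the stop codon and no stem-loop match. That of Hist1h2bc has 742, and it is spliced from 2 exons of a gene that spans chr13:23684199-23692908, with neither a stem-loop match nor a hexamer in its last 50 bases.

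The libraries held 10591067 to 14549357 counts each. Epithelial markers of the carcinoma were present in every tumor, with a summed level of 3210 to 5060 CPM over 13 genes led by Krt8, Krt18 and Krt7. CPM here are counts scaled to library size, with TMM factors. In bulk tissue, fewer cells of a type and less RNA per cell cannot be told apart.

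The 56 histone genes together took a very small share of each library. They held 8127 counts over all 6 tumors, which is 0.0109% of all counts. The lowest share was 0.0094% in with-peak tumor 1 (exact 95% binomial interval 0.00891 to 0.00991%), and the highest was 0.0134% in with-peak tumor 3 (0.0128 to 0.0142%). These intervals cover counting error only. For comparison, 12 replication-independent histone genes, whose messages are mostly polyadenylated (H2afx is known to give both forms), summed to 3370 ± 200 CPM in before-peak and 3270 ± 464 CPM in with-peak tumors (SD, n = 3 each).

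The counts were concentrated in few genes. Hist1h1c, Hist1h2bc, Hist1h4i and Hist2h2be held 72.3% of them. The median gene had 36.5 counts over all 6 tumors, 46 genes had under 100, and 28 had no count in at least 1 tumor. Per kilobase of annotated exon, the mean level over 6 tumors was 31.9 CPM for Hist1h1c, 16.9 for Hist1h2bc, 8.04 for Hist1h4i and 3.90 for Hist1h4h, against a median of 0.654 over the 56 genes. On this scale 50 of the 56 lay below the median of all genes in the table.

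The summed level was 98.5, 105 and 98.7 CPM in the before-peak tumors and 96.0, 124 and 138 CPM in the with-peak tumors. The groups overlapped, because with-peak tumor 1 was the lowest of all 6 and the other with-peak tumors were the highest. The means were 101 ± 3.62 and 119 ± 21.5 CPM (SD, n = 3 each), a log2 ratio of 0.25. The sign of that ratio rested on the most abundant genes. The log2 ratio of the sums was 0.11 without Hist1h1c. It was -0.10 without Hist1h1c and Hist1h2bc and -0.19 without the 4 highest genes, both chosen after the values were seen. The 4 highest genes summed to 68.6, 66.8 and 68.5 CPM in before-peak and to 73.9, 99.9 and 98.4 CPM in with-peak tumors.

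**Figure D1:**
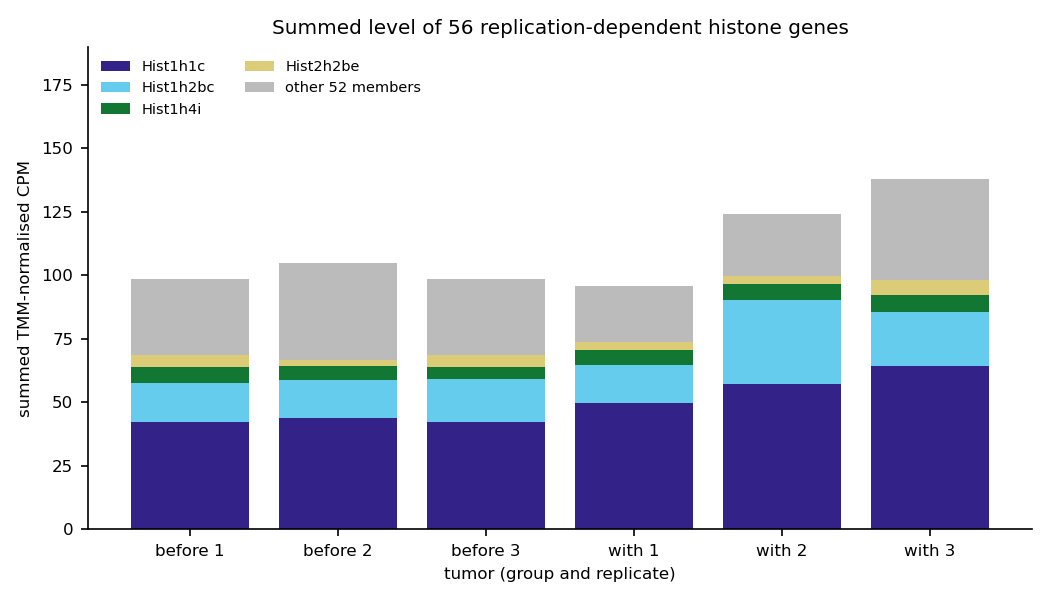
Stacked bars give the summed TMM-normalised CPM of the 56 genes in each tumor, split into the 4 most abundant genes and the other 52. The 4 highest genes reach 66.8 to 68.6 CPM in before-peak and 73.9 to 99.9 CPM in with-peak tumors, while the grey part is 22 to 39.8 CPM with no order by group.

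Only 16 of the 56 genes passed the filter on low counts and were tested. No histone gene passed an adjusted p of 0.05 in the edgeR quasi-likelihood test with Benjamini-Hochberg adjustment over all 16755 genes tested. No gene of the whole table did either (0% called), and the smallest adjusted p of any gene was 0.0828. At an unadjusted p under 0.05, 1 of the 16 was higher with the peak, Hist1h1c, against 6.12% of all genes tested. None was lower, against 3.38%. DESeq2 called none of the 13 for which it gave an adjusted p, against 1.62% of all genes with one, and gave none for Hist1h4k, Hist1h4d and Hist1h4c. Limma-voom called 0 genes in the whole table. The median log2 fold change of the 16 was 0.04, against -0.02 for all genes tested. With any 1 library left out, the median was -0.18 to -0.02. Those fits filtered the genes anew, so their histone genes need not be the same 16. Of the 16, 9 had a value above 0, against 47.7% of all genes.

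Groups without overlap were few in both directions, among the histone genes as among all genes. Among the 16 tested genes, Hist1h1c alone had every with-peak tumor above every before-peak tumor, against 8.13% of genes tested, and none had the reverse, against 7.38%. Over all 56 genes, filtered or not, 2 were higher without overlap (Hist1h1c and Hist2h2ab) and 4 were lower without overlap (Hist1h4b, Hist1h2bl, Hist1h2ak and Hist1h2ah). Over all 23508 genes the shares were 7.49% and 6.78%. Except for Hist1h1c, these genes are counted in few reads. Hist2h2ab had 0 counts in every before-peak tumor and 7, 2 and 2 with the peak. Set against a floor of 3 counts over the group, that is 3.66-fold higher. Hist1h2bl had 2, 10 and 5 counts before the peak and 0 in every with-peak tumor. Against the same floor that is 5.68-fold lower. Both ratios take the observed counts as exact, so they are not lower bounds, and both genes were named because their groups did not overlap. Only 35.2% of the short sequence stretches of Hist2h2ab and 17.2% of those of Hist1h2bl are found in no other gene. Their counts of 0 may therefore hide reads that were dropped or given to a similar gene.

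**Figure D2:**
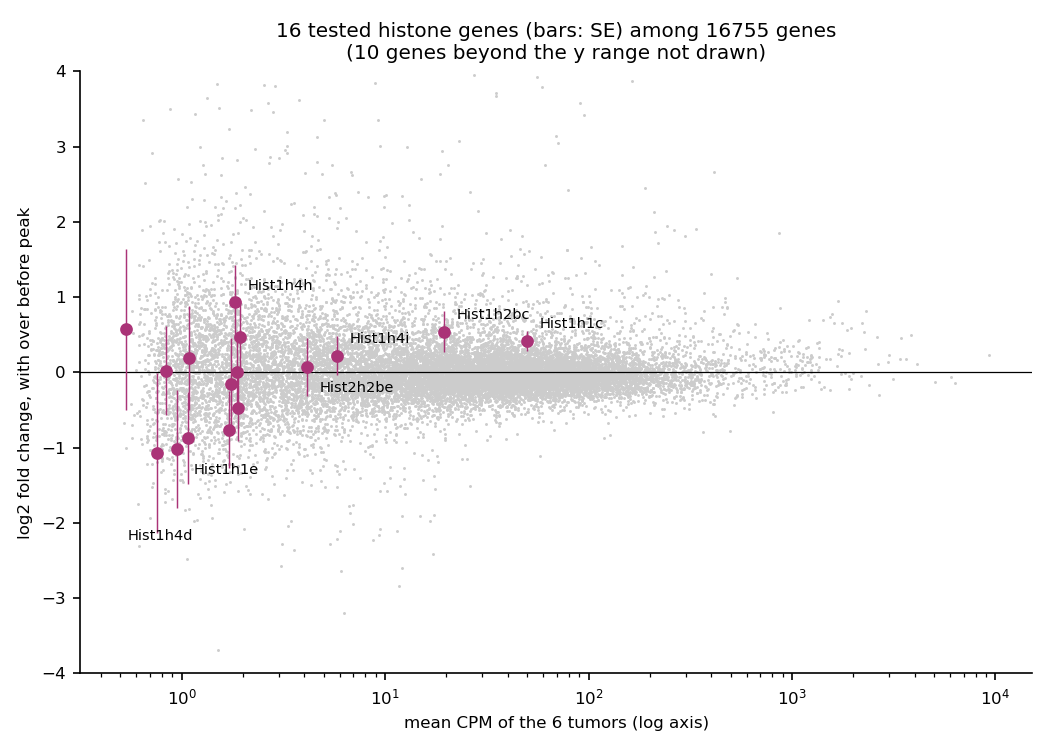
Each grey point is 1 of 16755 genes, with its mean CPM on a log axis and its log2 fold change, with-peak against before-peak. The 16 tested histone genes are coloured with bars of 1 SE, and they lie on both sides of 0, from -1.07 (Hist1h4d) to 0.93 (Hist1h4h).

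Linker histone H1 genes held the largest share of the counts, 48.7%. Hist1h1c, which encodes H1.2, was the most abundant of the 56 and had before-peak levels of 42.1, 43.6 and 42.2 CPM and with-peak levels of 49.6, 57.0 and 64.4 CPM. The before-peak tumors lay close together, and every with-peak tumor was above them. The log2 fold change was 0.42 (SE 0.13), with an edgeR p of 0.00992 and an adjusted p of 0.387. Across all the alternative analyses its log2 fold change stayed between 0.31 and 0.51, and its adjusted p between 0.249 and 0.672.

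The other tested H1 genes were far less abundant, with values in the opposite direction. Hist1h1d, which encodes H1.3, had before-peak levels of 1.69, 2.35 and 2.58 CPM and with-peak levels of 1.12, 1.72 and 1.94 CPM, and the groups overlapped (a log2 difference of -0.47 with an SE of 0.44, adjusted p = 0.772 by edgeR). Hist1h1e, which encodes H1.4, had before-peak levels of 0.401, 1.80 and 1.58 CPM and with-peak levels of 0.421, 0.235 and 1.26 CPM (a log2 difference of -1.02 with an SE of 0.78, adjusted p = 0.724 by edgeR). Before-peak tumor 1 and with-peak tumors 1 and 2 were the low ones for Hist1h1e. This gene overlaps Hist1h2be and Gm11398 on the same strand, so its counts are uncertain to that extent. Hist1h1b had 56 counts in all and Hist1h1a had 6, all from with-peak tumor 3. Neither was tested. Without Hist1h1c, the summed H1 level was 4.42 ± 1.77 CPM in before-peak and 3.03 ± 1.81 CPM in with-peak tumors (SD, n = 3 each).

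H2B genes followed, with 27.5% of the counts. Hist1h2bc had before-peak levels of 15.6, 15.1 and 17.1 CPM and with-peak levels of 15, 33.2 and 21.3 CPM. With-peak tumor 2 was far above the rest and with-peak tumor 1 was the lowest of all 6, so the groups overlapped. The log2 fold change was 0.54 (SE 0.27, edgeR adjusted p 0.573), and it was 0.19 without with-peak tumor 2.

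Hist2h2be had before-peak levels of 4.82, 2.58 and 4.67 CPM and with-peak levels of 3.51, 3.13 and 6.11 CPM, with the lowest value in one group and the highest in the other (a log2 difference of 0.07 with an SE of 0.39, adjusted p = 0.968 by edgeR). Hist1h2be had before-peak levels of 2.33, 1.88 and 1.42 CPM and with-peak levels of 1.33, 2.35 and 1.94 CPM, and both means were 1.87 CPM. It overlaps Hist1h1e and Gm11398 on the same strand, so its counts are uncertain to that extent. Hist1h2bg had before-peak levels of 1.44, 1.72 and 2.33 CPM and with-peak levels of 0.631, 1.18 and 3.20 CPM (a log2 difference of -0.16 with an SE of 0.61, adjusted p = 0.952 by edgeR). Its with-peak tumors spanned both the lowest and the highest of the 6 values. Without Hist1h2bc and Hist2h2be, the other 12 H2B genes summed to 7.25 ± 1.31 and 6.03 ± 2.30 CPM (SD, n = 3 each).

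H4 genes held 13.0% of the counts, and 6 of 12 were tested. Hist1h4i had before-peak levels of 6.18, 5.48 and 4.50 CPM and with-peak levels of 5.82, 6.58 and 6.50 CPM (a log2 difference of 0.22 with an SE of 0.26, adjusted p = 0.818 by edgeR). Before-peak tumor 1 lay inside the with-peak range. Hist1h4h had before-peak levels of 1.93, 0.940 and 0.917 CPM and with-peak levels of 3.02, 1.49 and 2.72 CPM (a log2 difference of 0.93 with an SE of 0.50, adjusted p = 0.617 by edgeR). With-peak tumor 2 was below before-peak tumor 1. Unlike Hist1h1c and Hist1h4i, the annotated Hist1h4h transcript ends 46 bases after the stem-loop, and it still had an ATTAAA in that short stretch.

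The other 4 tested H4 genes were lower in level and had values in both directions. Hist1h4c and Hist1h4k had log2 fold changes of 0.57 (SE 1.07) and 0.02 (SE 0.59). Hist2h4 had before-peak levels of 1.20, 1.96 and 1.00 CPM and with-peak levels of 1.26, 0.392 and 0.582 CPM (a log2 difference of -0.87 with an SE of 0.61, adjusted p = 0.700 by edgeR). Hist1h4d had before-peak levels of 0.161, 1.57 and 1.33 CPM and with-peak levels of 0, 0.627 and 0.873 CPM (a log2 difference of -1.07 with an SE of 1.06, adjusted p = 0.787 by edgeR). The lowest tumor of each group had 2 and 0 counts for Hist1h4d. The summed H4 level was 14.1 ± 3.01 CPM in before-peak and 14.3 ± 2.41 CPM in with-peak tumors (SD, n = 3 each).

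H2A genes held 6.98% of the counts. Hist1h2ae had before-peak levels of 3.21, 1.64 and 1.58 CPM and with-peak levels of 0.842, 1.80 and 1.16 CPM (a log2 difference of -0.76 with an SE of 0.51, adjusted p = 0.690 by edgeR). Before-peak tumor 1 was high and with-peak tumor 2 lay above the other before-peak tumors. Hist1h2ae overlaps Gm44394 on the opposite strand, and the libraries carry no strand information. Hist3h2a had before-peak levels of 1.44, 1.64 and 1.75 CPM and with-peak levels of 1.40, 1.80 and 3.59 CPM (a log2 difference of 0.47 with an SE of 0.48, adjusted p = 0.791 by edgeR). Its mean difference came from with-peak tumor 3, without which the log2 fold change was -0.01. It overlaps Trim17 on the same strand and Gm44313 on the opposite strand. Hist2h2aa2 had before-peak levels of 1.44, 0.313 and 1.33 CPM and with-peak levels of 1.26, 1.72 and 0.485 CPM (a log2 difference of 0.19 with an SE of 0.69, adjusted p = 0.951 by edgeR). None of its 50-base windows is unique to it among annotated transcripts, so its counts cannot be assigned to it alone.

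H3 genes held 3.81% of the counts, and none of the 11 with counts passed the filter. Their summed level was 4.57, 4.54 and 3.92 CPM in before-peak and 2.45, 3.68 and 6.40 CPM in with-peak tumors. With-peak tumors were the lowest and the highest of the 6. Over the 56 genes the median share of 50-base windows found in no other gene was 50.4%, and 27 genes had under 50% (Hist1h1c had 91.5% and Hist2h2be 100%), so that reads of low members may have been split between near-identical copies or dropped.

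**Figure D3:**
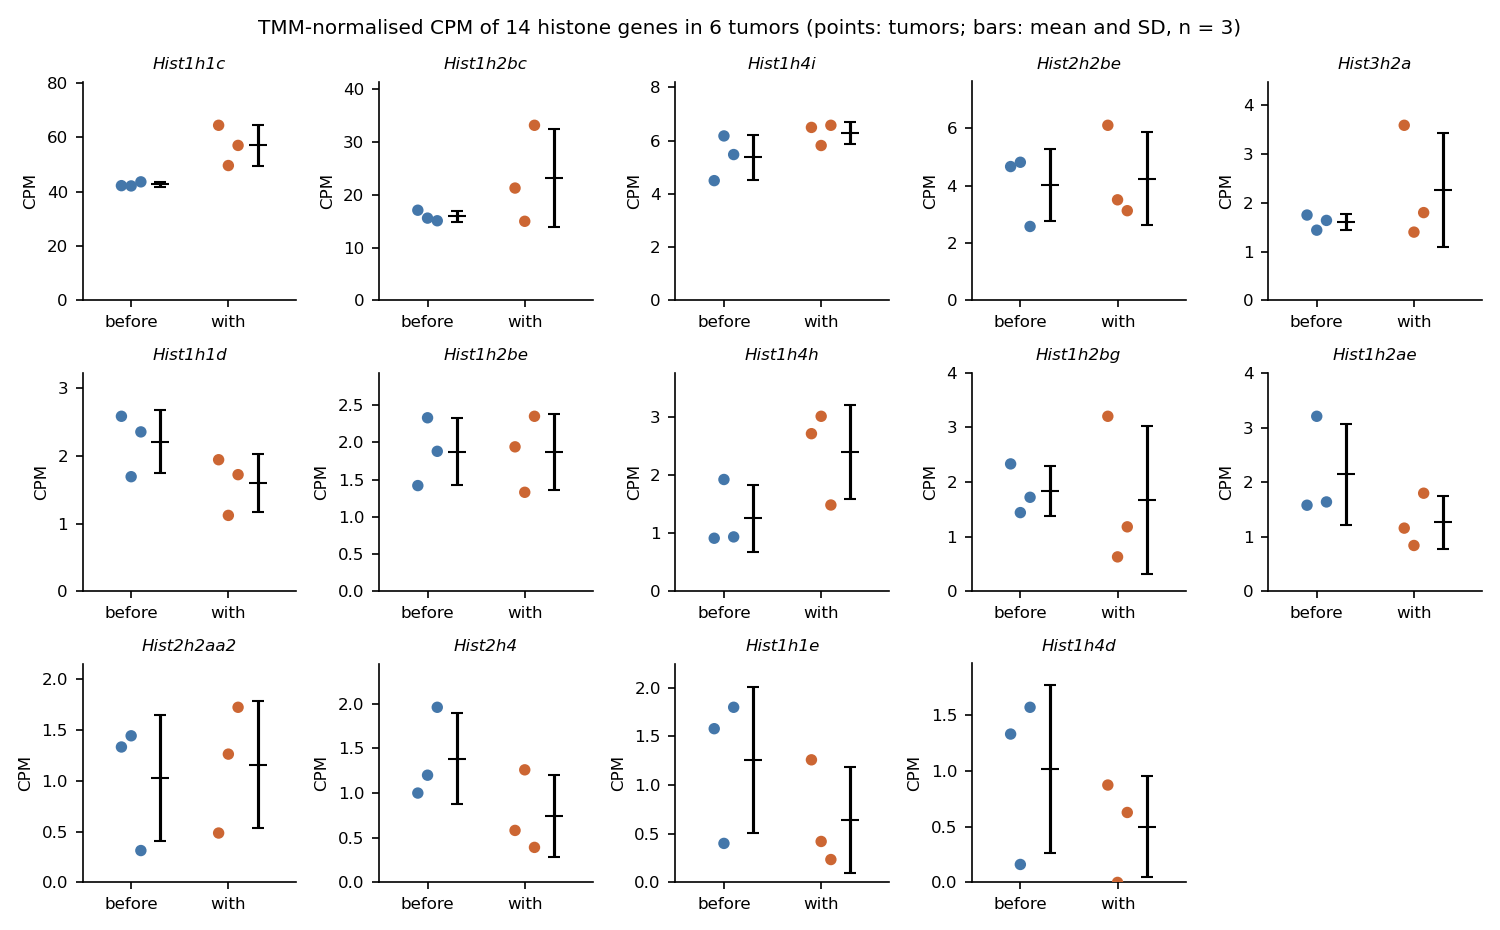
Each panel gives the TMM-normalised CPM of 1 histone gene on its own axis from 0, with a point per tumor and the mean and SD of 3 tumors beside each group. The groups are apart for Hist1h1c alone, with 42.1 to 43.6 CPM in before-peak and 49.6 to 64.4 CPM in with-peak tumors.

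By genomic cluster, the Hist1 genes on chromosome 13 held 90.5% of the counts. Their sum was 89.8 ± 3.58 CPM in before-peak and 109 ± 19.1 CPM in with-peak tumors (SD, n = 3 each). The 8 Hist2 genes on chromosome 3 summed to 8.09 ± 0.985 and 7.16 ± 1.05 CPM. The Hist3 pair on chromosome 11 summed to 1.92 ± 0.655 and 2.58 ± 1.57 CPM, and Hist4h4 on chromosome 6 had 0.812 ± 1.08 and 0.492 ± 0.602 CPM. In no cluster were the tumors of one group all above those of the other.

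Counts also differed by the annotated 3′ end, in classes drawn after the values were seen and given as a description. The 10 genes whose transcript runs past the stem-loop to a poly(A) signal held 58.5% of the histone counts, most of them from Hist1h1c. The 16 genes whose transcript ends near the stem-loop, within 60 bases of it, held 7.22%. Median levels per length were closer than these shares, at 0.857 CPM per kilobase for the first class and 0.736 for the second. The 12 genes that run past the stem-loop without a signal had a median of 0.441, and the 18 with no stem-loop in the annotated transcript had 0.607. The last class includes Hist1h2bc at 16.9 and Hist2h2be at 1.58 CPM per kilobase.

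**Figure D4:**
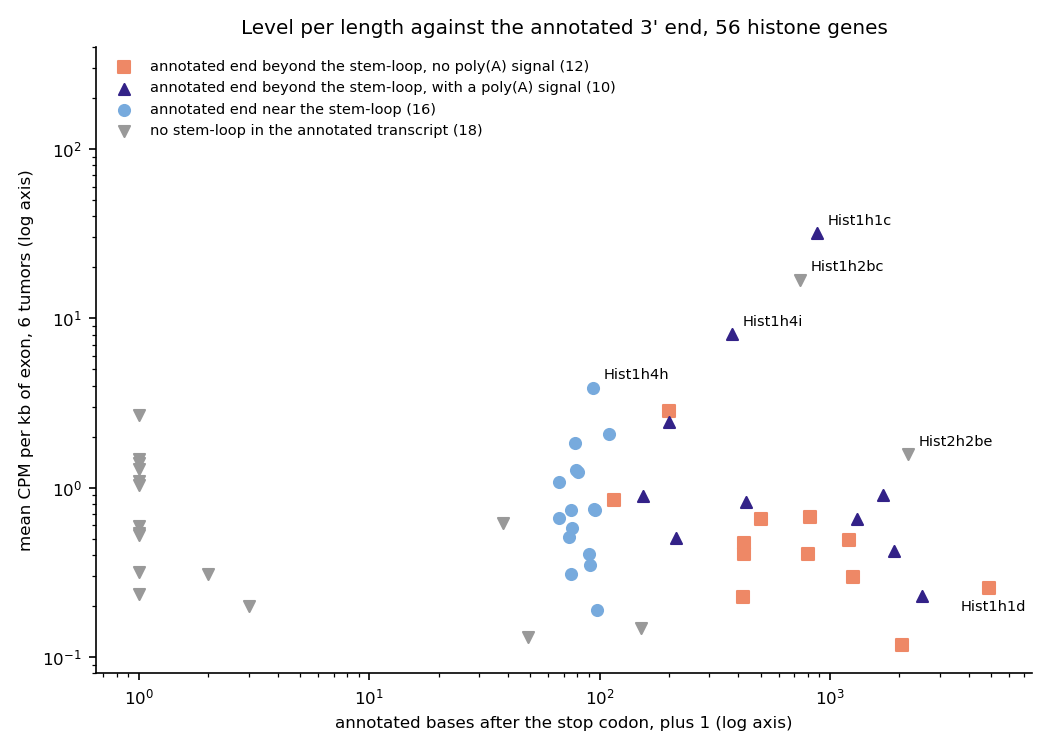
Points are the 56 histone genes, with the annotated bases after the stop codon (plus 1) against the mean CPM per kilobase of exon over 6 tumors, both on log axes. Hist1h1c (31.9), Hist1h2bc (16.9) and Hist1h4i (8.04) stand highest and have long annotated ends, while many genes with equally long ends lie below 1.

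The low members varied from tumor to tumor in a way that did not follow the groups. The 40 genes that were not tested summed to 13.0, 21.6 and 12.7 CPM in before-peak and to 8.77, 10 and 20.5 CPM in with-peak tumors. Before-peak tumor 2 and with-peak tumor 3 were the high ones. These tumors held the highest value for 15 and 16 of the 56 genes, while each of the other 4 held it for 5 to 9. Scatter between tumors of 1 group was read beside that of other genes at the same depth. Among genes with a mean of 1 to 5 counts, the median chi-square per degree of freedom was 2.40 for 24 histone genes and 2.19 for 4765 others. It was 3.00 and 2.68 at 5 to 10 counts, and 3.55 and 4.08 at 10 to 100. In the band above, where the median of other genes was 7.12, Hist1h1c had 6.0 and Hist1h2bc, with its high value in with-peak tumor 2, had 25.1.

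Genes that act around histone supply were read beside them. None passed the adjusted threshold in edgeR. Of 11 tested replication-independent histone genes, 6 had log2 fold changes above 0 and 5 below, with a median of 0.08, and none had an unadjusted p under 0.05. H3f3b and H3f3a, which encode H3.3, had log2 fold changes of -0.04 and 0.11, and H1f0, the linker histone of resting cells, had -0.19. Of 27 factors that transcribe or process histone messages, 22 had values below 0 (median -0.09), and 2 had an unadjusted p under 0.05, both lower. Over all genes tested, 47.7% had a value above 0, and 3.38% were lower at an unadjusted edgeR p under 0.05.

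Slbp, which encodes the stem-loop binding protein, had before-peak levels of 63.0, 52.5 and 65.2 CPM and with-peak levels of 47.3, 41.2 and 53.5 CPM. With-peak tumor 3 lay just above before-peak tumor 2 (log2 fold change -0.35, SE 0.14, edgeR p 0.0355, adjusted p 0.498). Hinfp, which encodes an activator of H4 genes and was named after its value was seen, had a log2 fold change of -0.44 (edgeR adjusted p 0.429). The U7 particle proteins Lsm10 and Lsm11 had 0.39 and -0.31, the histone locus proteins Npat and Casp8ap2 had -0.23 and -0.02, and the 3 most abundant of the list, Snrpb, Sympk and Srrt, had -0.18, -0.05 and -0.25. None of these passed.

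Of 23 histone chaperones, which carry histones to and from DNA, 21 had values below 0 (median -0.14) and 1, Hjurp, had an unadjusted p under 0.05, at a log2 fold change of -0.32. The most abundant of them, Npm1 and Nap1l1, had -0.11 and -0.20. Of 43 DNA replication genes, 35 had values below 0 (median -0.18) and 3 had an unadjusted p under 0.05, all lower. Pcna, the sliding clamp of the replication fork, had -0.15, and the helicase subunits Mcm6 and Mcm7 had -0.31 and -0.15. Of 25 mitosis genes, 24 had values below 0 (median -0.17) and 3 had an unadjusted p under 0.05, all lower. The most abundant were Top2a, Mki67 and Anln, at -0.10, -0.40 and -0.21. The median of all genes was -0.02, and 47.7% of them had a value above 0. At an unadjusted edgeR p under 0.05, 3.38% of all genes were lower, a share near that of the chaperones.

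Per tumor, the DNA replication genes summed to 2530, 2530 and 2490 CPM in before-peak and to 1950, 2250 and 2470 CPM in with-peak tumors. The 52 lower histone genes had before-peak levels of 29.9, 38.1 and 30.2 CPM and with-peak levels of 22, 24.3 and 39.8 CPM. In both, with-peak tumor 1 was the lowest of all 6 and with-peak tumor 3 the highest of its group. With-peak tumor 3 was the highest of all 6 in the histone genes. In the replication genes it lay just below the before-peak tumors. The mitosis genes summed to 2290, 2630 and 2490 CPM in the before-peak group and 2010, 2180 and 2500 CPM in the with-peak group. The carcinoma epithelial genes summed to 4650, 5060 and 3860 CPM and to 3870, 3210 and 4690 CPM in the same order. Both were highest in before-peak tumor 2. With-peak tumor 3 came next by little, at 2500 against 2490 CPM in before-peak tumor 3 for mitosis genes. For epithelial genes it had 4690 against 4650 CPM in before-peak tumor 1. The 52 lower histone genes were highest in with-peak tumor 3, followed by before-peak tumor 2. The part of the replication, mitosis and epithelial levels in the histone values was not tested.

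**Figure D5:**
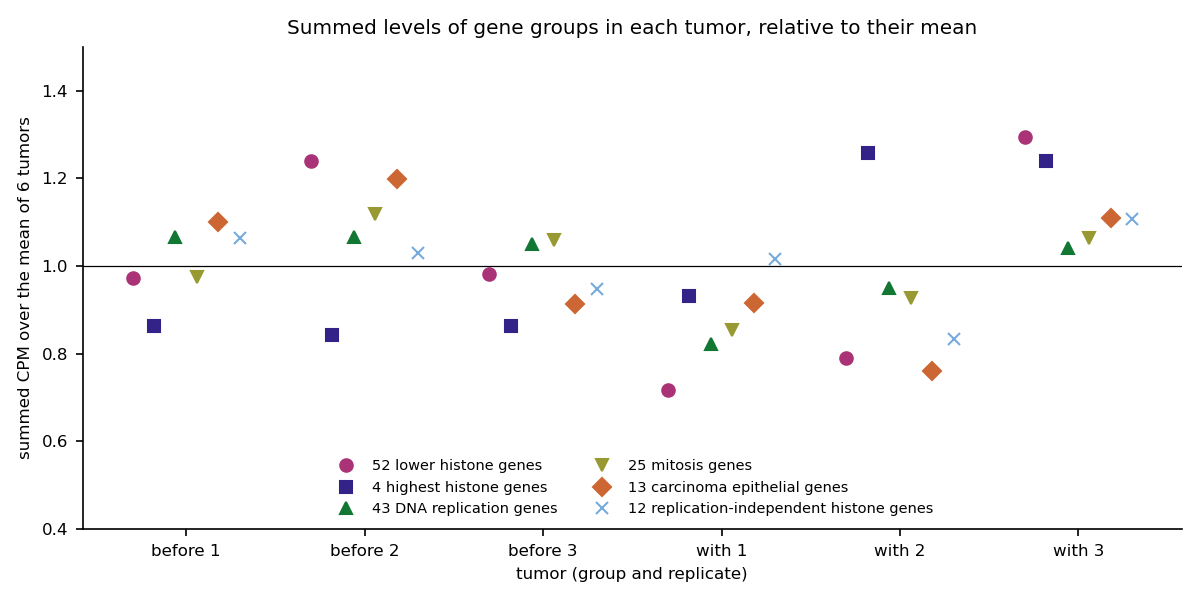
Points give the summed CPM of a gene group in each tumor, divided by its mean over the 6 tumors. The 52 lower histone genes (22 to 39.8 CPM) spread more than the 43 DNA replication genes (1950 to 2530 CPM), and the 4 highest histone genes stand higher in with-peak tumors 2 and 3.

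Other RNA known to lack a poly(A) tail, or to carry a short one, was read in the same libraries. Of 26 listed genes of that kind 7 had counts and 4 were tested, 3 with values above 0 and 1 below, with a median log2 fold change of 0.72. Their sum was 330, 315 and 446 CPM in before-peak and 634, 674 and 607 CPM in with-peak tumors, without overlap. Almost all of it came from the mitochondrial ribosomal RNAs mt-Rnr2 and mt-Rnr1, with log2 fold changes of 0.87 and 0.75 (edgeR adjusted p 0.142 and 0.117), ahead of Rn7sk at 0.70. The fourth tested gene, Snora73b, had -0.37 (edgeR adjusted p 0.903). At an unadjusted edgeR p under 0.05, 2 of the 4 tested were higher, against 6.12% of all genes tested. DESeq2 called 2 of the 4, against 1.62% of all genes with an adjusted p. The part of this difference in the histone values was not tested.

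Other cell types differed between the tumors as well. Of 12 skeletal muscle genes led by Acta1, Myh4 and Ckm, all had values above 0 and 5 had an unadjusted p under 0.05. They summed to 66.2 to 282 CPM in before-peak and 276 to 1620 CPM in with-peak tumors, and with-peak tumors 2 and 3, where Hist1h2bc and Hist1h1c were highest, held 1620 and 1550. Of 5 tested erythroid genes led by Hbb-bs, Hba-a1 and Hbb-bt, all 5 were higher at an unadjusted p under 0.05, with sums over the list of 137 to 250 and 277 to 2150 CPM. Macrophage genes, led by C1qa, C1qc and C1qb, were above 0 in 10 of 10, 9 of them at an unadjusted p under 0.05, with sums of 1380 to 1830 and 1920 to 2940 CPM. Carcinoma epithelial genes were below 0 in 11 of 13, with 3 at an unadjusted p under 0.05. B and plasma cell genes, led by Jchain, Cd22 and Cd79a, were below 0 in 6 of 7 tested, with sums of 9.47 to 495 and 52.9 to 92.4 CPM, the highest in before-peak tumor 3. T and NK cell genes, led by Gzmb, Cd4 and Cd8a, were below 0 in 7 of 10, with 1 higher at an unadjusted p under 0.05 and sums of 16.7 to 172 and 58.9 to 88.0 CPM. None of these passed the adjusted threshold in edgeR. Over all genes tested, 47.7% had a value above 0. At an unadjusted edgeR p under 0.05, 6.12% of all genes were higher and 3.38% lower. DESeq2 called 4 of the macrophage genes, 3 of the skeletal muscle and 2 of the erythroid, against 1.62% of all genes with an adjusted p. It also called 1 of the epithelial and 1 of the T and NK cell genes, and none of the B and plasma cell genes. Their part in the histone values was not tested.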

How the data were processed

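RNA was measured in 6 tumors, 3 per group. Per the labels' protocols, frozen tissue was lysed in Trizol, and oligo(dT)-purified RNA was sequenced from both ends without strand information. The authors deposited raw counts per gene, not normalized. STAR, FastQC and mm10 are named in the submitters' processing notes. The sources used here give no versions and no read counter. Reads shared by near-identical or overlapping genes therefore cannot be assigned with certainty.

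Of 23508 genes, 23479 matched GENCODE M21 (GRCm38), which gave symbols, coordinates and transcript sequences. Counts were tested with edgeR 4.0.16 (quasi-likelihood, robust, two-sided, TMM, no covariate) in R 4.3.3 after filterByExpr (at least 10 counts, total at least 15), which left 16755 genes. P-values were adjusted by Benjamini-Hochberg over all of them, with a threshold of 0.05. The SE is the log2 fold change divided by the square root of F. Between libraries of 1 group the chi-square per degree of freedom was 17.1 to 28.9, so none was taken as a duplicate. Alternatives were other scalings and filters, DESeq2 1.42.0, limma-voom (limma 3.58.1), a replicate block and left-out libraries.

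Histone genes named with values are the 12 highest by mean CPM and the 10 tested with the smallest p, and from each other list the 3 highest, with Slbp, Lsm10, Lsm11, Npat and Casp8ap2. The members and lists were chosen with earlier results of these data known.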

Additional observations from a re-analysis of the deposited data

How the results depend on the processing

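No histone gene was called in any of the alternatives, with DESeq2 giving no adjusted p for 3 of the 16. Over all genes, edgeR called 0 higher and 0 lower, while 26 were higher and 3 lower with no filter on low counts, 242 and 24 with DESeq2, 32 and 3 at an adjusted p under 0.1, and 4 were higher with 2 against 2 tumors. Leaving out 1 library gave 0 to 17 genes called higher, with 17 without before-peak tumor 2, 13 without before-peak tumor 3 and 9 without with-peak tumor 1. The cause was not tested. The median log2 fold change of the tested histone genes was 0.04, and it was -0.18 to -0.02 when 1 library was left out. The filter was applied anew in each of those fits, so the sets of histone genes differ. The medians therefore do not show how the same 16 genes shift. The log2 ratio of the summed level, 0.25, was -0.10 without the 2 highest members and -0.19 without the 4 highest, alternatives chosen after seeing the data. Of the named genes, Hist2h2be was at -0.15 with 2 against 2 tumors. Leaving out 1 library gave -0.27 to 0.25 for Hist2h2be, -0.01 to 0.73 for Hist3h2a, -0.20 to 0.20 for Hist1h2be, -1.01 to 0.25 for Hist1h2bg and -0.25 to 0.53 for Hist2h2aa2, so that no direction holds for these. The other 196 values of named genes kept their direction and their side of the threshold.

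With the replicate number as a block (replicate block), 1 gene was called higher and no histone gene was. The labels state no pairing. Same-numbered tumors had correlations of their deviations of -0.0633, -0.1 and 0.0278, and unlike-numbered ones had -0.0896 to 0.158. With so few tumors these values cannot show whether the tumors were paired. Depth limits the low members, since 24 of 56 had under 30 counts over all 6 tumors.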
